A study of Mus musculus with 10 samples.

Results

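Myelin and mature oligodendrocyte genes were examined in cerebellar RNA of 5 WT mice, labelled Control, and 5 mice labelled DscamKO, which were homozygous for the spontaneous loss-of-function allele *Dscam* del17. The labels give the strain as BALB/c and the age as P21, and per the methods the del17 line was crossed with BALB/cCrSlc mice. The samples were untreated, with 1 library from the cerebellum of each mouse. The deletion is germline, so every cell type of the cerebellum carried it, not one lineage. The rule lists the genes by name and uses no threshold on measured values, but the list was made with earlier results of these data known. It held 33 genes of the 53447 listed in each library, each taken by the Ensembl identifier that the GENCODE M21 annotation gives for its symbol. All 33 passed the filter on low values, a level of at least 0.5 TPM, a measure of transcript abundance scaled for transcript length and library size, in at least 5 libraries, which kept 17168 genes. The question was whether the genes of the sheath, of its lipids and of their regulators differed in level between the genotypes.

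Oligodendrocytes wrap axons with layers of their own membrane, and these layers are compacted into myelin. Specific proteins hold the membrane faces together, tight and gap junctions seal and connect the layers, and galactolipids make up much of the membrane. The transcription factors Sox10 and Myrf drive the genes of the mature cell. In the cerebellum the axons of Purkinje cells, mossy fibres and climbing fibres are myelinated, whereas the parallel fibres of granule cells are not. Whole tissue was measured, so fewer cells of a type and less RNA per cell cannot be told apart.

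*Dscam* itself was measured at 8.04, 8.43, 6.79, 9.05 and 6.29 TPM in WT replicates 1 to 5 and at 5.11, 5.42, 4.53, 3.73 and 3.05 TPM in mutant replicates 1 to 5. Every mutant library lay below every WT library (log2 fold change -0.825, 95% interval -1.33 to -0.32, two-sided exact permutation test, p = 0.0079, which is the lowest value possible with 5 and 5 mice). WT replicate 5 stood apart from the rest. It had 15623 genes at or above 0.5 TPM, against 17101 to 17763 in the other 9 libraries, and 15206 TPM of mitochondrially encoded mRNA, against 23124 to 44973. For single members, role groups and the other lists, log2 fold changes and medians that it moved by more than 1.5 times or turned in sign are therefore also given without it.

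Transcripts of mature oligodendrocytes were abundant in each library. The 33 genes together made up 0.957% to 1.21% of the listed TPM in WT cerebella and 1.03% to 1.17% in mutant cerebella, and the transcript of *Mbp*, which encodes myelin basic protein, alone was at no less than 3645 TPM in any library. The 8 markers listed for Schwann cells, which myelinate peripheral nerve, summed to 4.51 to 12.9 TPM in WT libraries and 6.64 to 9.15 TPM in mutant libraries, and *Pmp2* and *Foxd3* among them were listed at 0 in all 10.

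The members differ widely in base composition, which matters for the values below. The GC content of the transcript used for each gene ran from 38.0% for *Ugt8a* to 65.7% for *Nkx6-2*. The first 90 coding bases of these 2 genes are shown to make this range visible, with G and C in capitals. *Ugt8a* encodes the enzyme that makes galactosylceramide, the main galactolipid of myelin, and *Nkx6-2* a homeodomain factor of oligodendrocytes. The stretch of *Ugt8a* lies at chr3:125915370-125915459 on the minus strand of GRCm38, in exon 1 of its transcript Ugt8a-203 as annotated, and holds 39 G or C (43.3%). That of *Nkx6-2* lies at chr7:139582450-139582539 on the minus strand, in exon 1 of Nkx6-2-202, and holds 55 (61.1%).
Ugt8a: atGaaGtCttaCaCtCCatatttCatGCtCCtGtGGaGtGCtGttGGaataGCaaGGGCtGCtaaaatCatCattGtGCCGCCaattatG
Nkx6-2: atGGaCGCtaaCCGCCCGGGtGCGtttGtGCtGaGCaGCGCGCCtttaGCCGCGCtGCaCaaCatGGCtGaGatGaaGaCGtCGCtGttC

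A promoter is shown for a pair of sheath genes whose levels separated the genotypes, *Mobp* and *Mog*, described further on. The sequences are those of RefSeq on GRCm38.p6, from 250 to 51 bases before the annotated start. That of *Mobp* lies at chr9:120149492-120149691 on the plus strand and that of *Mog* at chr17:37023449-37023648 on the minus strand. Capitals mark ACAAAG, a core bound by SOX factors (CTTTGT on the other strand), and CTGGCAC or CTGGTAC, bound by MYRF (GTGCCAG or GTACCAG on the other strand).
Mobp: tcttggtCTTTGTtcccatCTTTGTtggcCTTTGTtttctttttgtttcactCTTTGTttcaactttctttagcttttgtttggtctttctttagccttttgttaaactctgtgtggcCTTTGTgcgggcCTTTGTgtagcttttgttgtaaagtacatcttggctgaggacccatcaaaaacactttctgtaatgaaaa
Mog: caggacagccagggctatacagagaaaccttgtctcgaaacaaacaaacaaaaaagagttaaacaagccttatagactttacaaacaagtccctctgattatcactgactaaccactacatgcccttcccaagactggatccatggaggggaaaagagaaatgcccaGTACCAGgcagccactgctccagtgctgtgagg

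The SOX letters were searched after the *Mobp* window had been read. In windows of 300 bases, from 250 before to 50 after a start, the *Mobp* promoter held 6 matches on either strand, the most in any of 32851 windows of all genes, and no other window reached 6. Promoters were found for 25 of the 33 members, in 38 windows. The SOX letters were in 10 of these 38 windows (26.3%), of 8 genes, and in 18.7% of all windows. The MYRF letters were in 7 of the 38 (18.4%), of 6 genes, and in 7.1% of all windows. Windows of the same gene can overlap, so they are not independent. Those of *Mag* at chr7:30914814-30915113 and chr7:30914873-30915172 do, and both are counted for SOX and for MYRF. Matches are letters in a sequence and were not tied to binding here.

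No gene passed an adjusted p of 0.05 between the genotypes with limma, among the members or among all genes tested (0%). At an unadjusted p under 0.05, 2.29% of all genes were higher and 3.26% lower in the mutant (394 and 559 genes), and limma without the variance trend called 4 genes. The smallest adjusted p of a member was 0.779. The values below are thus differences of level with their errors, none of which passed the test over all genes.

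Of the 33 members, 27 had a log2 fold change (mutant minus WT) above 0 and 6 below, with a median of 0.17. For comparison, 56.0% of all genes tested lay above 0, with a median of 0.049. Of the 33, 5 had an unadjusted p under 0.05 from limma, all higher in the mutant, namely *Mobp*, *Tspan2*, *Mal*, *Cldn11* and *Mog*. In *Mobp*, *Tspan2* and *Mog* every mutant library lay above every WT library, as in 0.419% of all genes tested, while no member lay below in every mutant library, as 0.798% of all genes did. Without WT replicate 5, 24 of the 33 lay above 0 and the median was 0.11, against -0.037 for all genes.

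**Figure D1:**
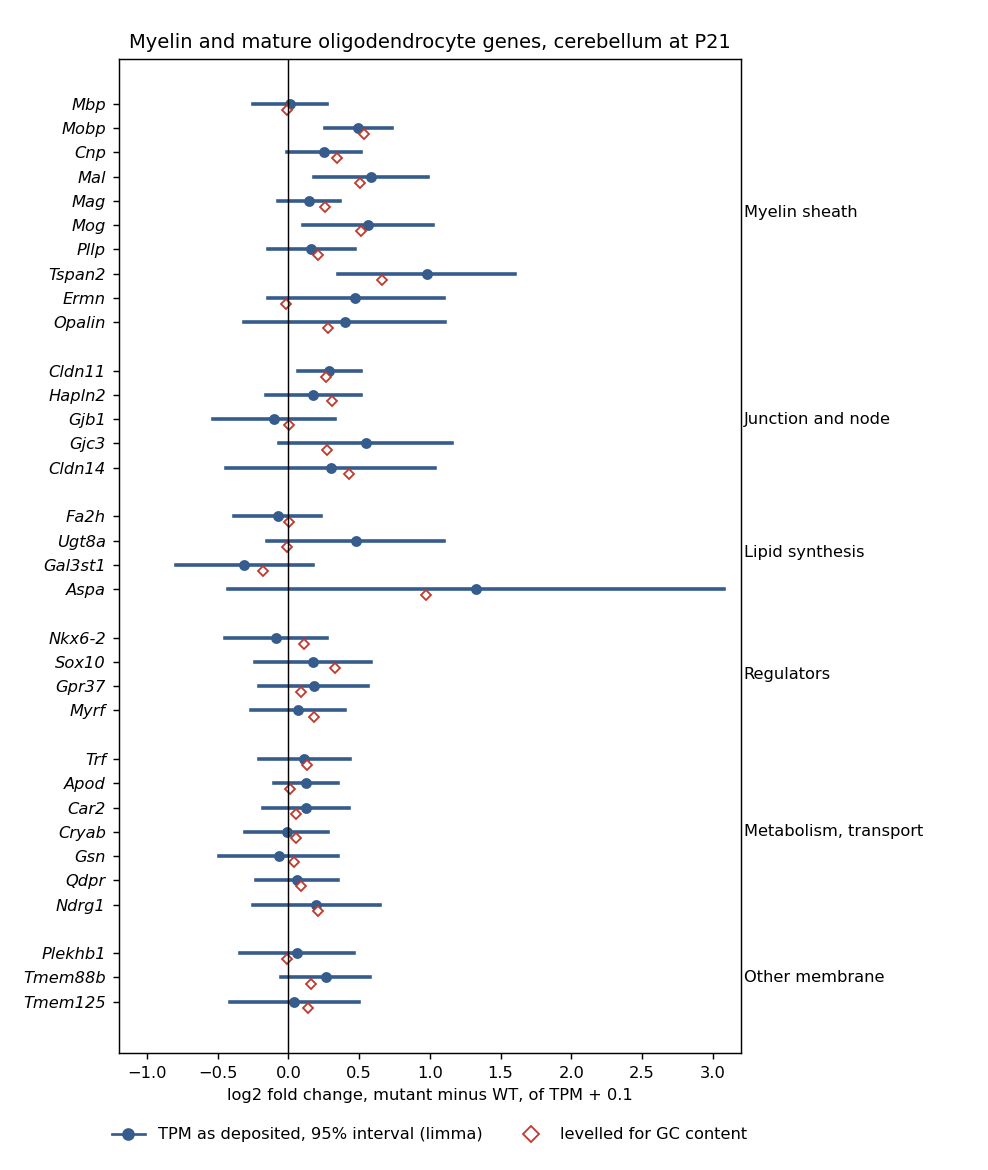
Log2 fold change (mutant minus WT) of TPM + 0.1 for the 33 genes, grouped by role and ordered by mean level, with the 95% interval from limma as a bar (n = 5 mice per genotype). Open diamonds give the value after levelling for GC content: *Mobp*, *Mog*, *Mal* and *Tspan2* stay well above 0, whereas *Ugt8a* and *Ermn* move to 0.

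The proteins of the sheath itself gave the highest median of the role groups, 0.44 over 10 genes, and all 10 had a log2 fold change above 0. Without WT replicate 5 it was 0.18, with 9 of 10 above 0, and lay below that of the junction genes (0.24). *Mobp* encodes a small basic protein of compact myelin and lies on chromosome 9 from 120149707 to 120181484. It was measured at 545, 847, 645, 701 and 645 TPM in WT replicates 1 to 5 and at 1026, 927, 932, 911 and 931 TPM in mutant replicates 1 to 5. The lowest mutant library was thus above the highest WT library, WT replicate 2. The means were 677 ± 111 TPM (SD, n = 5) and 945 ± 45.9 TPM (SD, n = 5), with a log2 fold change of 0.50 (95% interval 0.26 to 0.73, unadjusted p = 0.000703 and adjusted p = 0.779 from limma). Without WT replicate 5 it was 0.48.

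*Mbp*, on which compaction of the membrane depends, gave no such difference. Its TPM were 4483, 4353, 5637, 5101 and 3645 in WT and 4817, 4910, 4864, 4464 and 4172 in the mutant. All mutant values lay inside the WT range. The means were 4644 ± 759 TPM and 4646 ± 318 TPM (SD, n = 5 each), and the log2 fold change of 0.01 had a 95% interval of -0.249 to 0.28 (-0.0699 without WT replicate 5). The ratio of *Mobp* to *Mbp* in the same library was 0.122, 0.195, 0.114, 0.137 and 0.177 in WT and 0.213, 0.189, 0.192, 0.204 and 0.223 in the mutant. WT replicate 2 overlapped with the mutant in this ratio, and the other 4 WT libraries lay below all of it. The ratio was formed after the values were seen and was not tested.

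*Tspan2* encodes a tetraspanin of the oligodendrocyte membrane and lies on chromosome 3 from 102734529 to 102801513. It was at 54.1, 58.0, 26.3, 40.1 and 18.2 TPM in WT and at 81.7, 84.6, 66.2, 67.0 and 58.6 TPM in the mutant. The genotypes did not overlap, but only 58.0 and 58.6 TPM separated them, and WT replicates 3 and 5 were the lowest. The log2 fold change of 0.98 (95% interval 0.35 to 1.6, unadjusted p = 0.00539 from limma) was 0.73 without WT replicate 5.

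*Mog* encodes a glycoprotein of the outermost myelin surface and lies on chromosome 17 from 37010743 to 37023398. It was at 139.7, 120, 114, 129 and 56.8 TPM in WT and at 159, 175, 161, 157 and 139.8 TPM in the mutant. The separation of the genotypes rested on a gap of 139.7 to 139.8 TPM. Its log2 fold change was 0.56 (95% interval 0.10 to 1.02, unadjusted p = 0.0207 from limma), and 0.33 without WT replicate 5, which had the lowest level.

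*Mal*, a proteolipid involved in sorting membrane to myelin, was at 172, 186, 118, 146 and 90.1 TPM in WT and at 232, 227, 207, 207 and 167 TPM in the mutant. Mutant replicate 5 fell among the WT values and the other 4 lay above all of them (log2 fold change 0.58, 95% interval 0.18 to 0.99, unadjusted p = 0.00831 from limma, 0.43 without WT replicate 5). *Cnp*, an enzyme that keeps cytoplasmic channels open in myelin, was at 458, 378, 403, 472 and 326 TPM in WT and at 526, 550, 477, 457 and 406 TPM in the mutant. The mutant was higher in 3 of 5 libraries than any WT library (log2 fold change 0.25, 95% interval -0.0105 to 0.51). Reads of *Cnp* may be shared with *Dnajc7*, a coding gene of 93.4 TPM that overlaps it on the opposite strand.

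The remaining sheath genes overlapped between the genotypes. *Mag*, an adhesion protein of the membrane facing the axon, was at 152 ± 15.8 TPM in WT cerebella and 168 ± 15.2 TPM in mutant cerebella (SD, n = 5 each), a log2 fold change of 0.15. *Pllp*, a proteolipid of the myelin membrane, gave 0.16, *Opalin*, a sialylated membrane protein of oligodendrocytes, 0.40, and *Ermn*, a cytoskeletal protein of the mature cell, 0.47. The last pair depended on WT replicate 5, where *Opalin* was at 5.80 TPM and *Ermn* at 11.6 TPM. Without that library their log2 fold changes were 0.065 and 0.19.

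**Figure D2:**
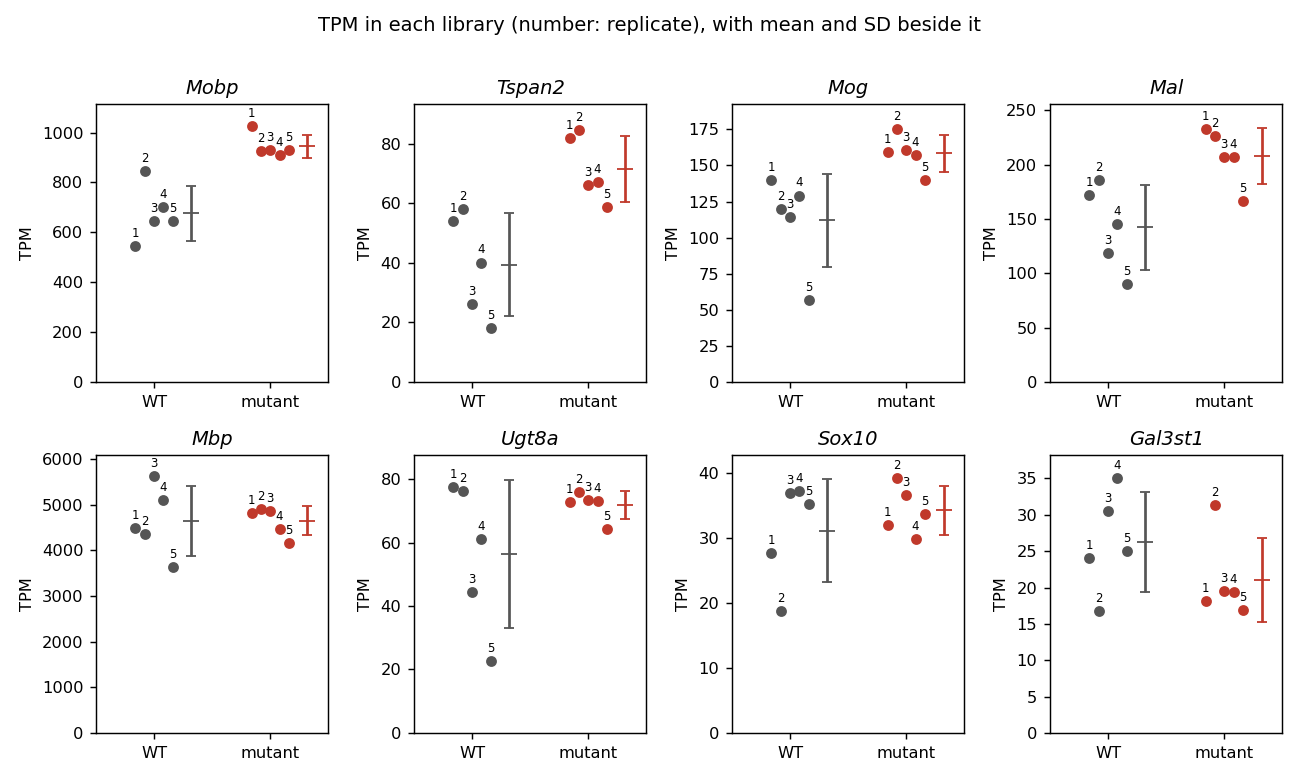
TPM of 8 genes in each library (points, numbered by replicate), with the mean and SD of the 5 mice of each genotype beside them, on axes that start at 0. *Mobp*, *Tspan2* and *Mog* did not overlap between WT and mutant, *Mal* overlapped in mutant replicate 5 alone, and the mutant values of *Mbp* lay inside the WT range.

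The 5 genes of junctions and nodes had a median log2 fold change of 0.29, with 4 above 0, and 0.24 without WT replicate 5. *Cldn11* forms the tight junctions between myelin layers and was among the most abundant members, at 308, 353, 286, 339 and 274 TPM in WT and 424, 393, 408, 331 and 350 TPM in the mutant. In the mutant, 3 libraries were above all WT libraries and the other 2 were within the WT range (log2 fold change 0.29, 95% interval 0.068 to 0.51, unadjusted p = 0.015 from limma, 0.24 without WT replicate 5). *Gjc3*, a connexin of myelinating glia, had a log2 fold change of 0.55 and ran from 12.3 to 37.5 TPM in WT cerebella and from 30.8 to 50.7 TPM in mutant cerebella. It was 0.28 without WT replicate 5, its lowest library, and 0.27 after levelling for GC content, described further on. *Gjb1*, which encodes connexin 32 of the myelin gap junctions, had a log2 fold change of -0.098, *Hapln2*, a link protein of the matrix at nodes, 0.18, and the low-level claudin gene *Cldn14* 0.30, each with an interval across 0. The values of *Gjb1* and *Cldn14* were -0.17 and 0.14 without WT replicate 5.

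The lipid enzymes did not share a direction, and their median was 0.20, or 0.041 without WT replicate 5. *Ugt8a* and *Aspa* had log2 fold changes of 0.48 and 1.33, and *Fa2h* and *Gal3st1* of -0.0735 and -0.311. *Ugt8a* was at 77.6, 76.3, 44.4, 61.3 and 22.6 TPM in WT and at 72.7, 75.95, 73.5, 73.0 and 64.2 TPM in the mutant. WT replicates 1 and 2 were the highest of all 10 libraries, and WT replicates 3, 4 and 5 the lowest. Without WT replicate 5 its log2 fold change was 0.18. *Aspa*, whose product releases acetate from N-acetylaspartate for lipid synthesis, ran from 0.609 to 17.3 TPM in WT cerebella and from 4.01 to 25.4 TPM in mutant cerebella. Its interval, -0.429 to 3.08, was the widest of the set, and without WT replicate 5 its log2 fold change was 0.59. *Fa2h*, which hydroxylates the fatty acids of galactolipids, was at 76.7 ± 10.5 TPM in WT cerebella and 73.4 ± 13.1 TPM in mutant cerebella. *Gal3st1*, which adds the sulphate of sulphatide, was at 24.0, 16.8, 30.5, 35.0 and 25.1 TPM in WT and at 18.2, 31.3, 19.5, 19.4 and 16.9 TPM in the mutant, where replicate 2 alone was above 20 TPM.

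The 4 regulators had log2 fold changes between -0.0856 (*Nkx6-2*) and 0.18 (*Gpr37*), all with intervals across 0. The median was 0.12, and 0.058 without WT replicate 5, where *Nkx6-2* was at -0.0114 and *Gpr37* at 0.059. *Sox10*, the factor of the whole lineage, was at 27.7, 18.8, 36.9, 37.1 and 35.1 TPM in WT and at 31.9, 39.2, 36.6, 29.8 and 33.6 TPM in the mutant. *Myrf*, which is required for mature myelin gene expression, was at 15.7, 13.4, 16.7, 21.2 and 15.9 TPM in WT and at 19.5, 18.2, 16.9, 15.9 and 15.8 TPM in the mutant. The genotypes overlapped throughout for both genes. *Nkx6-2* was at 27.2, 26.0, 36.1, 41.4 and 41.5 TPM in WT and at 35.2, 34.6, 34.5, 26.6 and 29.2 TPM in the mutant. *Gpr37*, a receptor that restrains oligodendrocyte differentiation, was at 18.8, 14.4, 20.5, 22.4 and 12.3 TPM in WT and at 21.5, 17.8, 19.1, 19.6 and 19.9 TPM in the mutant. For the regulators, WT libraries held both the highest and the lowest value of *Myrf*, *Nkx6-2* and *Gpr37*. *Nkx6-2* overlaps *Inpp5a*, a coding gene of 185 TPM on the opposite strand.

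Genes of metabolism, transport and cytoskeleton lay near 0, with a median log2 fold change of 0.11 that was -0.0114 without WT replicate 5. *Trf*, the transferrin that oligodendrocytes make, was at 266, 202, 211, 201 and 142 TPM in WT and at 195, 222, 249, 201 and 222 TPM in the mutant. It overlaps *Gm20425*, a coding gene of 188 TPM on the same strand, with which its reads may be shared. *Apod*, an apolipoprotein, was at 194, 172, 173, 177 and 156 TPM in WT and at 213, 162, 185, 218 and 175 TPM in the mutant. *Car2*, the cytosolic carbonic anhydrase, was at 170, 151, 184, 191 and 125 TPM in WT and at 206, 154, 189, 195 and 148 TPM in the mutant. In each of these 3 genes the lowest level was in WT replicate 5. *Qdpr*, which regenerates tetrahydrobiopterin, had a log2 fold change of 0.061, *Ndrg1* of 0.20, the small heat shock protein gene *Cryab* of -0.0124 and *Gsn*, which encodes the actin-severing gelsolin, of -0.0688. Of the membrane-associated genes of less known role, *Plekhb1* gave 0.062, *Tmem88b* 0.26 and *Tmem125* 0.044. When WT replicate 5 was left out, the log2 fold change went from 0.11 to -0.0114 for *Trf* and from 0.12 to 0.030 for *Car2*, and it was -0.0626 for *Qdpr*, 0.054 for *Ndrg1*, -0.0604 for *Cryab* and -0.162 for *Gsn*. It was then 0.099 for *Plekhb1*, 0.17 for *Tmem88b* and 0.165 for *Tmem125*, and the median of these last 3 genes went from 0.062 to 0.165.

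The library values followed base composition. In WT replicate 5 the 11 members of lowest GC content (38.0% to 49.1%) lay at a median of -1.34 from their mean over the 10 libraries on the log2 scale, the 11 of middle GC content at -0.34 and the 11 of highest GC content (55.8% to 65.7%) at -0.0802. WT replicate 5 had the lowest level of 19 of the 33 members. WT replicate 2 had the lowest of 11 others, with *Sox10*, *Hapln2*, *Gjb1* and *Mag* among them, and its deviations ran the other way. Across the 33 members the Spearman correlation of a library's deviation with GC content was -0.617, -0.67, 0.50, 0.585 and 0.76 in WT replicates 1 to 5, and it lay between -0.752 and 0.019 in the 5 mutant libraries. Over all 17125 genes with a GC value it was -0.35, -0.369, 0.378, 0.209 and 0.485 in the WT libraries, which thus deviated with GC content in both directions. The points share libraries and genes, so these are descriptions.

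**Figure D3:**
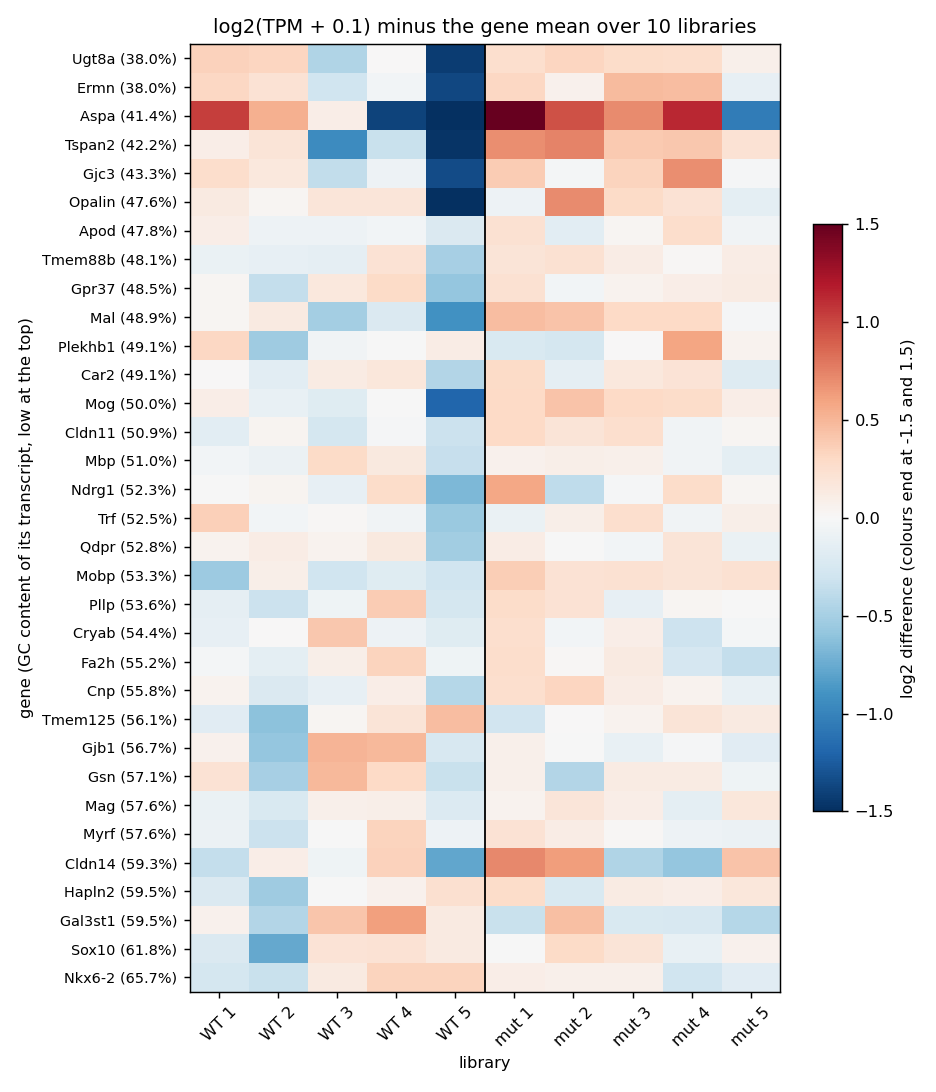
Log2(TPM + 0.1) of each gene in each library minus the mean of that gene over the 10 libraries, in colours that end at -1.5 and 1.5, with genes ordered by the GC content of their transcript. WT replicate 5 is far below the mean for the genes of lowest GC content at the top, where the median of 11 genes was -1.34, and near it at the bottom, and WT replicate 2 is lowest for many genes near the bottom.

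The fold changes followed GC content too. Over the 33 members their Pearson correlation with it was -0.67 (Spearman -0.623), and -0.466 without WT replicate 5. The 11 members of lowest GC content had a median log2 fold change of 0.47, those of middle content 0.12 and those of highest content 0.068. The log2 values were therefore also levelled for GC content in each library over all genes, with a loess curve of each library's deviations on GC content. After this step the Pearson correlation over the members was -0.179, and the 3 medians were 0.16, 0.13 and 0.18. The levelling was chosen after the data had been seen, and what made the libraries differ by GC content was not tested.

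After levelling, 28 of the 33 members lay above 0, beside 50.0% of all genes, and the median was 0.16 against 0.000162 for all genes (0.13 and -0.00652 without WT replicate 5). The levelling itself brings the share over all genes near 50.0% and their median near 0. In all, 9 members had an unadjusted p under 0.05, all higher in the mutant, namely *Mobp*, *Tspan2*, *Mal*, *Mog*, *Cnp*, *Mag*, *Cldn11*, *Hapln2* and *Sox10*. Over all genes 3.11% were higher and 3.16% lower by this rule. *Mobp*, *Tspan2* and *Mog* again did not overlap between the genotypes, as 0.689% of all genes did in this direction. No gene passed the adjusted threshold after levelling either, and the smallest adjusted p of a member was 0.293, for *Tspan2*, from limma.

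Single genes moved in different ways. *Mobp*, of 53.3% GC, went from 0.50 to 0.54 and *Mog* from 0.56 to 0.51. *Tspan2*, of 42.2% GC, went from 0.98 to 0.66. *Cnp* went from 0.25 to 0.34, *Mag* from 0.15 to 0.26 and *Sox10* from 0.17 to 0.33. *Ugt8a* and *Ermn*, both of 38.0% GC, went from 0.48 and 0.47 to -0.0128 and -0.0139, with intervals of -0.189 to 0.16 and -0.277 to 0.25. *Mbp* stayed at 0, with -0.00729 and an interval of -0.242 to 0.23.

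The order of the role groups changed accordingly. The sheath genes had a median of 0.31 with 8 of 10 above 0 after levelling, and 0.24 when WT replicate 5 was left out as well. The junction genes had 0.27 and 0.25, with 5 of 5 above 0, and the regulators 0.15 and 0.13, with 4 of 4 above 0. The lipid enzymes had -0.00235 and -0.00949, with 2 of 4 above 0. Metabolism and transport genes had 0.053 and 0.058. The differences between role groups were not tested.

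**Figure D4:**
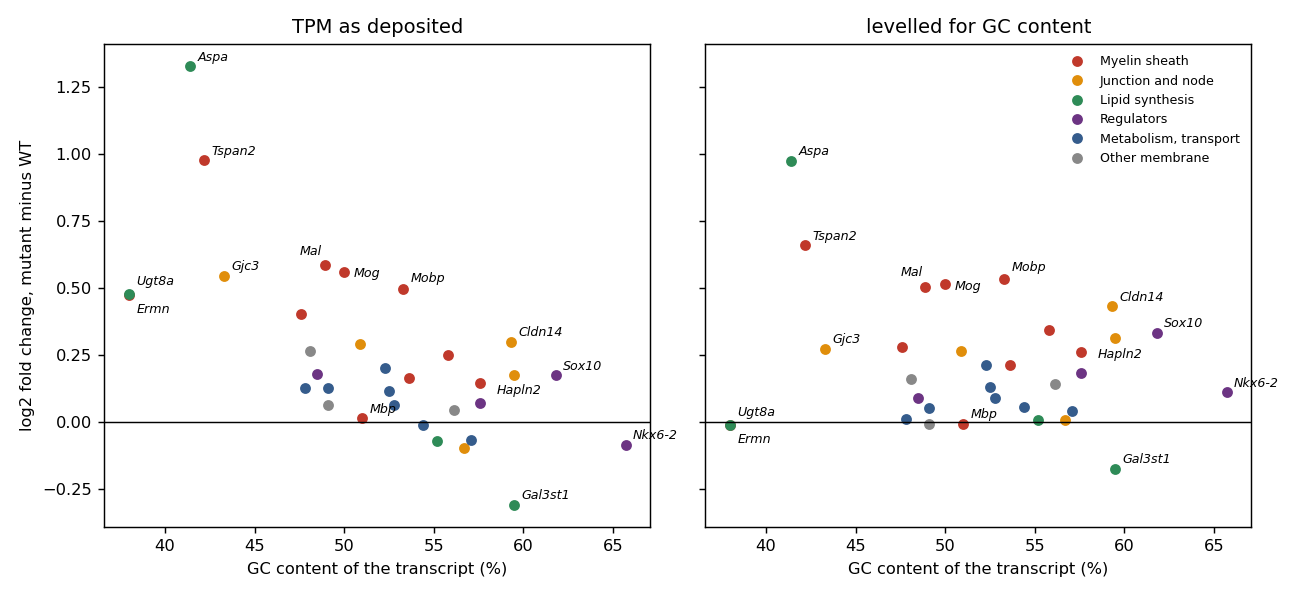
Log2 fold change (mutant minus WT) of each of the 33 genes against the GC content of its transcript, from TPM as deposited on the left and after levelling on the right, coloured by role. On the left the values fall with GC content (Pearson r = -0.67), and on the right they do not (r = -0.179), with *Aspa*, *Tspan2*, *Mobp*, *Mog* and *Mal* at the top.

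Other genes of the lineage were read from further lists. Of 17 further genes of myelinating oligodendrocytes, all tested, 12 lay above 0, with a median of 0.19, and of 0.091 after levelling. The median was 0.048 without WT replicate 5, with 10 of the 17 above 0. Of the 17, 4 had an unadjusted p under 0.05 from limma, all higher in the mutant. Over all genes tested 2.29% were higher by this rule, and in 0.419% every mutant library lay above every WT library. *Evi2a*, a membrane protein gene, was at 19.0, 16.3, 20.6, 19.8 and 8.91 TPM in WT and at 43.1, 26.3, 22.6, 31.5 and 24.6 TPM in the mutant, without overlap (log2 fold change 0.82, and 0.55 after levelling). *Lpar1*, a lysophosphatidic acid receptor gene, had 15.0 ± 1.596 TPM and 20.7 ± 3.17 TPM (SD, n = 5 each), also without overlap (0.46, and 0.28 after levelling). *Klk6*, which encodes a secreted protease, had 30.3 ± 4.53 TPM and 40.6 ± 4.14 TPM (0.43, and 0.45 after levelling). After levelling no gene of this list was without overlap, and the unadjusted p of *Lpar1* was 0.227 from limma. *Sept4*, a septin gene and the most abundant of those named here, had a log2 fold change of -0.0387.

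Of 9 precursor and lineage genes 7 lay above 0, with a median of 0.26, or 0.086 without WT replicate 5, and 0.094 after levelling. *Olig2*, a transcription factor of the lineage, was at 22.7 ± 5.05 TPM in WT cerebella and 29.2 ± 1.81 TPM in mutant cerebella (log2 fold change 0.38, unadjusted p = 0.0319 from limma). *Olig1* gave 0.12. Of 10 genes of newly formed oligodendrocytes 9 were tested, 6 above 0 and 3 below, with a median of 0.095. After levelling the median was 0.135, with 5 above 0. *Bcas1* and *Gpr17* gave 0.17 and 0.095. *Enpp6*, *Bmp4* and *Nkx2-2* lay below 0, at -0.268, -0.537 and -0.253. *Enpp6* was at -0.492 without WT replicate 5 and at -0.581 after levelling. Without WT replicate 5 the median of the 9 tested genes was -0.000618, the value of *Gpr17*, with 4 above 0.

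Genes that supply the lipids of the membrane had lower medians than the sheath genes, a difference that was not tested. Of 14 genes of sphingolipid and fatty acid metabolism 8 lay above 0, with a median of 0.12 and -0.00596 after levelling. It was 0.00844 without WT replicate 5, with 7 above 0. Of 22 genes of cholesterol synthesis 9 lay above 0, with a median of -0.0496, and 1 without WT replicate 5, where the median was -0.202. In WT replicate 5 their summed level was 498 TPM, against up to 900 TPM in the other WT libraries. *Dhcr7*, the last enzyme of the pathway, was at 19.8, 19.0, 12.01, 34.1 and 16.1 TPM in WT and at 8.80, 9.27, 12.7, 11.7 and 6.68 TPM in the mutant, with 1 mutant library inside the WT range (log2 fold change -0.979, unadjusted p = 0.00394 from limma). Of the 22, 2 had an unadjusted p under 0.05, both lower in the mutant, as 3.26% of all genes tested were.

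Genes of the axons themselves were examined beside those of the sheath. Of 9 genes of neurofilaments and the node region 8 lay above 0, with a median of 0.15 and 0.12 after levelling. The median was 0.013, with 5 of the 9 above 0, without WT replicate 5. The neurofilament gene *Nefl* was at 144, 149, 137, 144 and 122 TPM in WT and at 189, 161, 202, 182 and 176 TPM in the mutant. *Nefm* was at 116, 102, 98.7, 95.7 and 104 TPM in WT and at 143, 122, 139, 126 and 126 TPM in the mutant. For both genes every mutant library lay above every WT library, as for 0.419% of all genes tested. Their log2 fold changes were 0.39 and 0.35, but after levelling *Nefl* overlapped between the genotypes. *Nefh* gave 0.40. *Cntnap1*, which encodes a protein of the paranodal junction, lay the other way (-0.252, unadjusted p = 0.0319 from limma, and -0.157 after levelling).

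Markers of other cells and tissues were read in the same comparison. Of 17 genes of brainstem and midbrain neurons 6 were tested and all 6 lay above 0, with a median of 1.12 and sums over the 17 of 4.15 to 11.1 TPM in WT cerebella and 7.18 to 19.1 TPM in mutant cerebella. *Hoxb5* and *Hoxa5* of this list were listed at 0 in all libraries. *Dbh*, at 2.19 the highest of the 6, passed the filter through the mutant alone. Its highest WT library had 0.458 TPM, under the 0.5 TPM needed, and its lowest mutant library 0.685 TPM. With such WT levels it could pass only if all 5 mutant libraries were higher, so its sign is uninformative. *Prph* and *Tph2* also had means near this floor (0.513 and 0.578 TPM). The count of 6 and their median thus cannot show a direction. The sums do not depend on the filter, but *Slc17a6* was the largest part of the sum in each mutant library. It ran from 1.5 to 8.4 TPM in WT cerebella and from 3.4 to 14.1 TPM in mutant cerebella. In WT replicate 5, *Calca* was at 5.84 TPM of a sum of 10.15 TPM. The sums thus do not stand for the list as a whole. All 5 red blood cell genes lay above 0, with sums of 1065 to 1795 TPM in WT cerebella and 1536 to 2698 TPM in mutant cerebella. Of 10 granule cell genes 8 lay below 0, with a median of -0.146 and sums of 3420 to 4163 TPM in WT cerebella and 3268 to 3685 TPM in mutant cerebella. Of 9 Purkinje cell genes 8 lay above 0, with a median of 0.23, beside 0.17 for the members. It was 0.0999 without WT replicate 5 and 0.015 after levelling, and the sums were 4367 to 5094 TPM for WT and 4473 to 5270 TPM for the mutant. The lists of astrocytes (12 genes), microglia (8) and endothelial cells (7) had medians of 0.042, 0.018 and -0.0296, which were -0.0516, 0.030 and -0.186 without WT replicate 5. Meningeal fibroblast genes, 7 of 8 tested, had a median of -0.182. Choroid plexus genes overlapped, at 1806 to 3431 TPM for WT and 1946 to 3425 TPM. Whether a different share of white matter, brainstem or blood in the dissected tissue had a part in the higher sheath gene levels was not tested.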

How the data were processed

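Per the methods and notes, the authors used Trimmomatic (version 0.36) for trimming, HISAT2 (version 2.2.0) for alignment to GRCm38, and StringTie (version 1.3.6) for the TPM of each gene. The labels name GRCm38.p5 and a pair of library kits, NEBNext Ultra Directional and KAPA HTP, but not which library was made with which, so a part of the kits in the dependence on GC content was not tested. The annotation release and the strand setting are not given in the sources used here. The deposited TPM were used as they are. TPM keeps no number of reads, so depth is unknown and no counting error is given. The listed TPM sum to 684771 to 838532 per library. The read counts and DESeq2 results that the methods name were not analysed here.

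Genes with at least 0.5 TPM in at least 5 of the 10 libraries (17168 genes) were compared on log2(TPM + 0.1) with limma (version 3.58.1, R version 4.3.3), with a variance trend and no covariates, two-sided, with Benjamini-Hochberg adjustment over all genes and a threshold of 0.05. The added 0.1 TPM draws fold changes of low genes toward 0. *Dscam* was also compared with an exact permutation test. GC content and gene positions are from GENCODE M21 on GRCm38, which lacked 191 identifiers, with 1 annotated transcript per gene. For the levelling, a loess curve (span 0.3) of each library's deviations from the gene means on GC content was subtracted. The fit was tested on simulated data with errors independent between genes. The levelling was tested on simulated data with a linear slope on GC content in 1 library. Several libraries here deviated with GC content at once, which these simulations do not cover.

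The members and gene lists were chosen with earlier results of these data known. All 33 members are named, and other genes by the smallest p or highest mean of their list, as far as needed. Values per library are given for members that did not overlap, the most abundant members, the regulators and a few others chosen after their values were seen. Alternatives changed the added value, filter, scaling, covariates, weights, block, test and libraries.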

Additional observations from a re-analysis of the deposited data

Results flagged for a closer look

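In 9 of the 82 groups of 5 values looked at, 1 library lay far from the other 4, by a rule under which chance flags about 1 group in 20, or 4.1 here. WT replicate 5 was the low library for *Opalin* (5.802 TPM, nearest other WT library 17.46), *Qdpr* (80.06 TPM, nearest 119.7) and the mean log2 level of the 10 sheath genes (6.519, nearest 7.132). WT replicate 3 was the high library for *Cryab* (179.7 TPM, nearest 136.3). Among mutant libraries, replicate 1 was high for *Mobp* (1026 TPM, nearest 931.9) and for the mean log2 level of the 5 junction genes (5.689, nearest 5.447). Mutant replicate 2 was high for *Gal3st1* (31.29 TPM, nearest 19.52). Mutant replicate 5 was low for *Ugt8a* (64.16 TPM, nearest 72.73) and for the mean log2 level of the 4 lipid enzymes (4.5, nearest 5.161). The *Mobp* library flagged here lies on the side away from WT, and *Mobp* did not overlap between the genotypes whether or not it is counted.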

How the results depend on the processing

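Over 26 settings, 18 of the 33 members kept the sign of their log2 fold change in each. *Mobp* ran from 0.42 to 0.58, *Tspan2* from 0.485 to 1.15, *Mog* from 0.23 to 0.66 and *Mal* from 0.28 to 0.69. The median of all members ran from 0.065 to 0.25. With the replicate number of the labels as a block (replicate block), it was 0.17 and no gene was called. Libraries with the same number correlated at 0.00789 to 0.0978. Whether the numbers pair the mice cannot be told from such values. The number of genes called was 0 in each setting but 2, limma without the variance trend (4) and without mutant replicate 4 (0 to 1 over the libraries left out in turn). The median of the sheath genes was 0.15 with mitochondrial mRNA as a covariate, and 0.15 without WT replicates 3 and 5. The causes were not tested.

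The sign of the other members turned in at least 1 setting. With the mitochondrial covariate, the log2 fold change was -0.0418 for *Mbp*, -0.0152 for *Opalin*, -0.0172 for *Ermn*, -0.0383 for *Ugt8a*, 0.092 for *Nkx6-2*, -0.0704 for *Trf*, -0.117 for *Qdpr*, 0.00749 for *Cryab* and -0.0357 for *Ndrg1*. Without WT replicates 3 and 5 it was 0.045 for *Nkx6-2*, -0.0273 for *Trf*, -0.0758 for *Qdpr*, 0.057 for *Cryab* and -0.00120 for *Ndrg1*. Other scalings gave -0.0219 (median of ratios) and -0.455 (quantile) for *Mbp*, 0.041 (quantile) and 0.010 (equal sum of coding mRNA) for *Cryab*, and -0.0175 (quantile) for *Tmem125*. Array weights gave -0.0441 for *Mbp* and -0.0454 for *Qdpr*. GC levelling, with or without the replicate block, gave -0.00729 for *Mbp*, -0.0139 for *Ermn*, 0.00481 for *Gjb1*, -0.0128 for *Ugt8a*, 0.00806 for *Fa2h*, 0.11 for *Nkx6-2*, 0.053 for *Cryab*, 0.038 for *Gsn* and -0.00966 for *Plekhb1*. With WT replicate 5 left out as well, it gave -0.0160 for *Mbp*, -0.00344 for *Ermn*, -0.0159 for *Ugt8a*, 0.107 for *Nkx6-2* and 0.029 for *Cryab*. Leaving out each library in turn gave -0.0699 to 0.087 for *Mbp*, -0.254 to 0.018 for *Gjb1*, -0.15 to 0.0052 for *Fa2h*, -0.00394 to 0.16 for *Myrf*, -0.0114 to 0.22 for *Trf*, -0.0626 to 0.11 for *Qdpr*, -0.0761 to 0.088 for *Cryab*, -0.201 to 0.045 for *Gsn*, -0.0779 to 0.15 for *Plekhb1* and -0.106 to 0.17 for *Tmem125*. TPM without counts limits what can be said of low genes such as *Cldn14*.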
